A study of Mus musculus with 9 samples.

Results

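The genes described here encode the proteins of the mitochondrial ribosome. The rule that finds them uses gene names: every row of the gene count table whose symbol begins with Mrpl (large subunit) or Mrps (small subunit) followed by a digit. It found 78 genes among the 20627 features of the table, 49 of the large subunit by name and 29 of the small subunit. All 78 also passed the filter on low counts, which left 13311 genes in the test. The cells were RAW264.7, an established mouse macrophage-like line, in 9 libraries of polyadenylated RNA that form 3 groups of 3. HG-SIG cells received 35 mmol/l glucose together with sitagliptin phosphate, an inhibitor of dipeptidyl peptidase 4, for 6 h. HG cells received 35 mmol/l glucose for 6 h. NC cells were the control, and the labels and design text used here give them no glucose concentration or incubation time. HG against NC addresses high glucose, and HG-SIG against HG addresses sitagliptin on top of it. No osmotic control and no group with sitagliptin alone was analysed here, so glucose and osmolarity cannot be told apart, and HG-SIG against NC joins both agents.

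The mitochondrial ribosome sits in the mitochondrial matrix and makes the few respiratory-chain and ATP synthase subunits that mitochondrial DNA still encodes. Its ribosomal RNAs come from mitochondrial DNA, but all of its proteins are made from nuclear genes in the cytosol and imported. Some of these proteins descend from bacterial ribosomal proteins, and others were added in mitochondria. In macrophages, changes in glucose use and respiration accompany activation, and the mitochondrial ribosome is needed to renew the respiratory chain.

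Library totals lay between 23285821 and 31571578 counts, and single members drew between 161 counts in a library (Mrpl23) and 4446 counts (Mrps6). The labels name 1 batch. They do not say whether replicates came from separate cultures; every p-value below reflects the spread among these libraries, which may be technical. HG replicate 3 stood apart: it was the lowest HG library for 71 of the 78 members, and it had the smallest total. HG-SIG replicate 3 was the lowest of its group for 60 members. The median coefficient of variation of a member within a group was 4.47%. Of 9 macrophage markers, 8 passed the filter on low counts, and Mertk had 0 to 6 counts a library; the summed level of the 9 was 4970 to 5058 CPM (counts relative to library size, here scaled by edgeR's TMM factors) in HG-SIG, 9320 to 10002 CPM in HG and 9535 to 10011 CPM in NC. Summed lymphocyte, epithelial and fibroblast markers each stayed at or below 0.201 CPM in every library. In bulk RNA, fewer cells of a type and less RNA per cell cannot be told apart.

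By known structure, 51 of the genes belong to the large subunit and 26 to the small subunit. Mrps30 and Mrps18a carry small-subunit names but sit in the large subunit, and Mrps36 is now known as a part of the 2-oxoglutarate dehydrogenase complex. Of the 78, 46 are classed as having bacterial homologues and 32 as specific to mitochondria, after their unified ribosomal protein names. Mrps18a and Mrps18b fall in the second class by name, although they are relatives of a bacterial protein. The genes lie on 17 chromosomes, with 11 of them on chromosome 11, so they form no single cluster. Per exonic length, levels were fairly even: 71 of the 78 genes had a mean between 20 and 200 TPM (counts per exonic length, scaled to the same sum in each library), with a median of 75.4 TPM for the large and 78.3 TPM for the small subunit. Averaged over the 9 libraries, the highest levels per length were 316 TPM for Mrps6, a small-subunit protein with a bacterial homologue, and 286 TPM for Mrpl42, a mitochondria-specific protein. The place of Mrps6 came from HG, where it averaged 446 TPM; it averaged 281 TPM in HG-SIG, below Mrpl42 (322 TPM) and Mrps21 (301 TPM), and 223 TPM in NC, below Mrpl33 (271 TPM), Mrps21 (260 TPM) and Mrpl42 (243 TPM). The lowest averages were 19.3 TPM for Mrpl23, a protein at the exit of the nascent peptide, and, in the small subunit, 23.1 TPM for Mrps35. These ranks depend on the length, which merges the annotated exons and can exceed 1 transcript, as for Mrps14 (3233 bases against 787). Mrps35 has 4162 merged bases, and Mrps12, ranked above it, had fewer CPM (8.19 against 36.1 in NC).

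The promoters of 3 genes on which the results turn are shown as the 250 bases before the RefSeq start (RefSeq, GRCm38.p6, plus strand), in lower case with matches to 5 of the 6 searched motifs in capitals. The short motif CCAAT is left in lower case; it stands once in these stretches, in Mrpl53. These are Mrps6 (chr16:92058086-92058335), the member that moved most, and Mrpl52 (chr14:54426659-54426908) and Mrpl53 (chr6:83108858-83109107), the members that fell most with high glucose.
Mrps6: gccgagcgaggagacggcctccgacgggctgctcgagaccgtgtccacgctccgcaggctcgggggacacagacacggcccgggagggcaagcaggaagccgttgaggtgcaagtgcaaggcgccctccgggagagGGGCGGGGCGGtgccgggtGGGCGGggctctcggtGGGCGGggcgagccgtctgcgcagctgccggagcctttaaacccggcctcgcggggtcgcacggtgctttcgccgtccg
Mrpl52: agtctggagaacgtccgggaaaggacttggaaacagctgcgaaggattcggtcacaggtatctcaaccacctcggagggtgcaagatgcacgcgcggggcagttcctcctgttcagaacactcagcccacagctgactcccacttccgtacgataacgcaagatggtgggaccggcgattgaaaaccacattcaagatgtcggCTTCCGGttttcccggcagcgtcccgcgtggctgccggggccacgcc
Mrpl53: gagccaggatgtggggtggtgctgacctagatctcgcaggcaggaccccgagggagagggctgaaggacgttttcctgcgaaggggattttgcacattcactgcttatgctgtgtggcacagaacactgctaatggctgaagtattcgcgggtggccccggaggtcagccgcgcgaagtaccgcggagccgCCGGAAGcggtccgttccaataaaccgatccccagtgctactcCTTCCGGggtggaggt
The capitals in Mrps6 are 4 matches to the GC box, GGGCGG, a motif bound by the Sp family. Those in Mrpl52 and Mrpl53 are 1 and 2 matches to the ETS motif CCGGAAG or its reverse complement. GENCODE starts Mrps6 at 92058270 and Mrpl53 at 83109040, so both stretches run past that start. In Mrpl53 both ETS matches lie past it.

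Over 300-base windows (250 before and 50 after the start), promoters were matched for 69 of the 78 members and read on both strands. The ETS motif stood in 26 of the 69 (37.7%), against 21.6% of all tested genes with a promoter and 9.9% of all genes. The motif of NRF1, a known regulator of nuclear genes for mitochondria, stood in 13 (18.8%), against 12.3% of tested genes. The YY1 motif AAGATGGCG stood in 8 members (11.6%), against 3.9% of tested genes. The GC box ran the other way, with 34 members (49.3%) against 68.5% of tested genes, and the E-box CACGTG, bound by Myc among others, stood in 5 (7.2%) against 11.9%. The motif CCAAT stood in 27 members (39.1%), against 43.6% of tested genes. Among the 23 matched members called lower in HG-SIG against HG under TMM, 9 held the ETS motif (39.1%), 4 the YY1 motif (17.4%) and 3 the NRF1 motif. These are matches of letters in a window and were not tested.

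With high glucose, the mitochondrial ribosomal protein genes moved little as a group, and 1 gene, Mrps6, was nearly 1 log2 unit higher. In HG against NC, 7 of the 78 were higher and 4 lower (edgeR's quasi-likelihood test, Benjamini-Hochberg adjusted p under 0.05), and 67 did not pass. Among all genes tested, 14.3% were higher and 15.2% lower, so the members' shares of 8.97% and 5.13% were below the background. Their median log2 fold change was 0.02, beside 0.003 for all genes tested. None passed an absolute log2 fold change of 1, which 2.85% of all genes did. All HG libraries lay above all NC libraries for 8 members and below them for 8, beside 20.8% and 20.8% of all genes tested. These counts rest on single libraries: the number higher was 3 without HG replicate 1, 3 without HG replicate 2, 16 without HG replicate 3 and 11 without NC replicate 2, and the number lower was 2 without HG replicate 3, NC replicate 1 or NC replicate 2. The number higher was 15 with library totals alone as the scaling, beside 2480 of all 13311 genes. It was 14 with the replicate number as a block, beside 2291 of all genes.

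**Figure D1:**
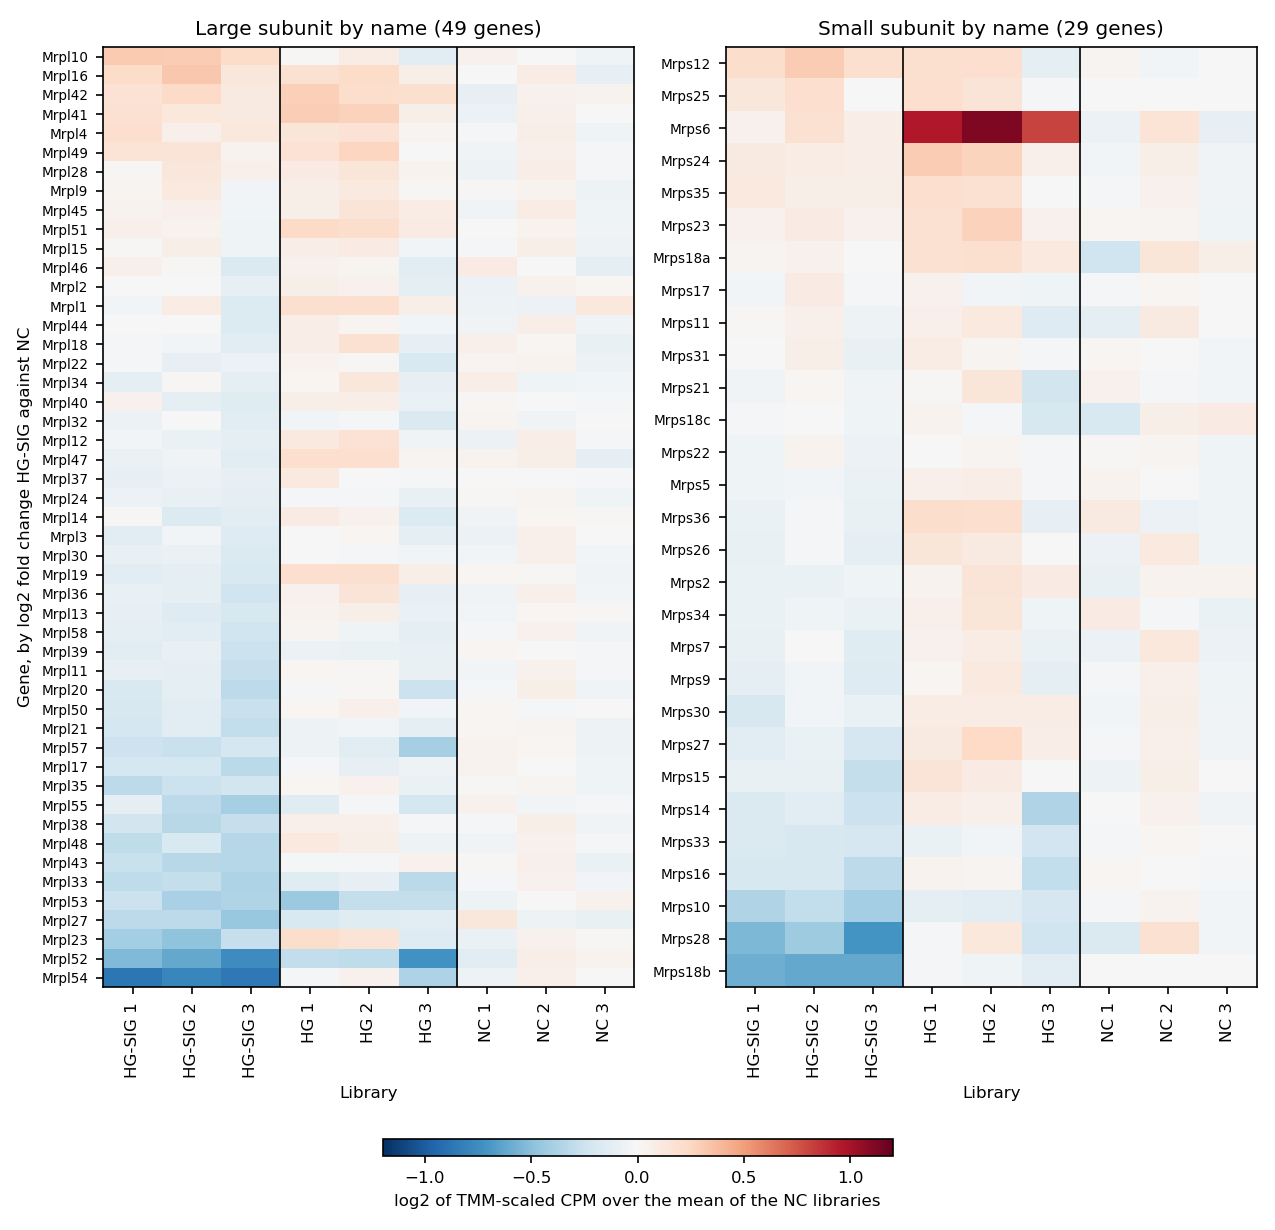
Level of each of the 78 genes in each of the 9 libraries, as the log2 ratio of TMM-scaled CPM to the mean of the NC libraries, with large-subunit genes on the left and small-subunit genes on the right, ordered by their HG-SIG against NC fold change. Mrps6 is the single strong red row, in the 3 HG libraries alone, and Mrpl54, Mrpl52, Mrps18b and Mrps28 are the deepest blue rows in HG-SIG.

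Mrps6 (ENSMUSG00000039680, chr16:92058270-92112227, plus strand, mm10) encodes a protein of the small subunit. Its levels were 82.3, 89.9 and 83.8 CPM in HG-SIG, 155, 173 and 139 CPM in HG, and 75.3, 88.6 and 74.1 CPM in NC. The 3 HG libraries lay above all others, while HG-SIG and NC overlapped. The log2 fold change was 0.98 ± 0.08 (SE, adjusted p = 1.2e-06) in HG against NC, -0.87 ± 0.08 (adjusted p = 1.6e-06) in HG-SIG against HG and 0.11 ± 0.08 (adjusted p = 0.27) in HG-SIG against NC, by edgeR. The first change kept its call in each of the 20 settings run, including every way of scaling and each library left out, with values from 0.90 to 1.06, and so did the second, with values from -0.94 to -0.66.

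Mrps6 shares its start with Slc5a3, which is not a mitochondrial ribosomal gene but encodes the sodium-dependent transporter of myo-inositol, a solute that cells take up under osmotic stress. Both genes run on the plus strand, and their promoter windows overlap by 286 of 300 bases, so the Mrps6 promoter printed above is nearly all of the Slc5a3 promoter too. Their first exons share 159 bases (chr16:92058322-92058480), which are 18.8% of the exonic length of Mrps6. Slc5a3 had 152, 192 and 197 CPM in HG-SIG, 314, 417 and 389 CPM in HG, and 142, 152 and 150 CPM in NC. It was highest in the HG libraries, with no overlap. Its log2 fold change was 1.33 ± 0.10 (adjusted p = 8.6e-07) in HG against NC, -1.05 ± 0.10 (adjusted p = 3.5e-06) in HG-SIG against HG, and 0.28 ± 0.10 (adjusted p = 0.031) in HG-SIG against NC, by edgeR. The last of these was lost without HG-SIG replicate 2 or 3 or any single NC library, and in DESeq2. The part in the Mrps6 count of reads from the shared bases was not tested.

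**Figure D2:**
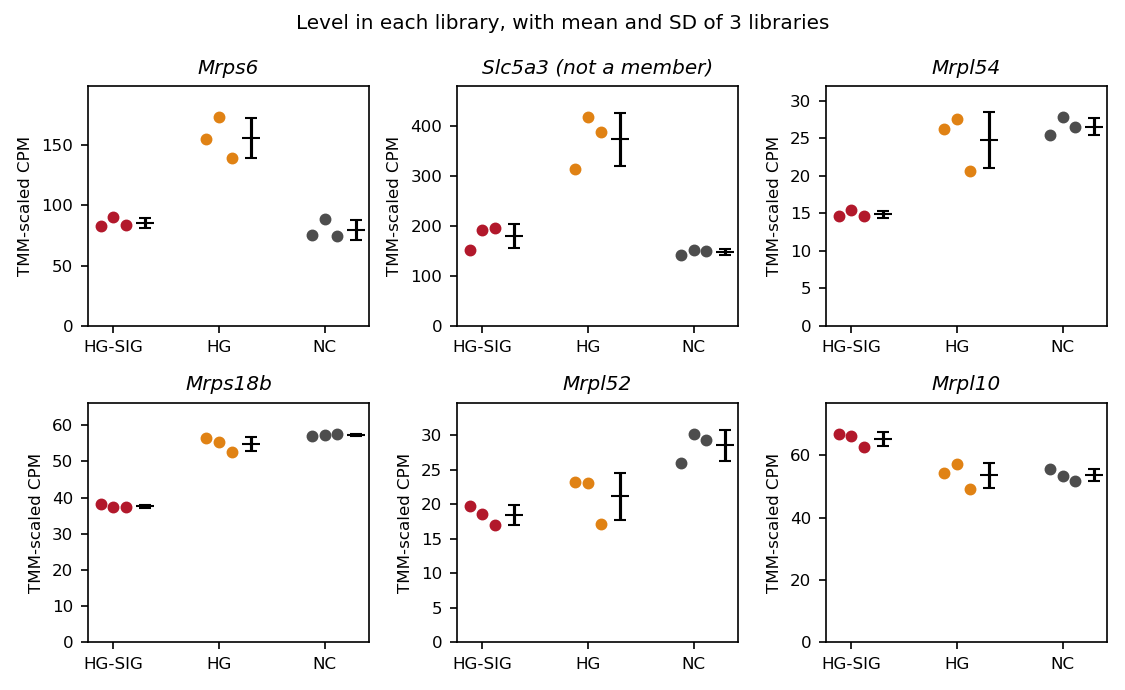
TMM-scaled CPM in each library for 5 members and for Slc5a3, the neighbour that shares the start of Mrps6; dots are libraries, and bars give the mean and SD of 3. Mrps6 and Slc5a3 are high in HG only, Mrpl54 and Mrps18b are low in HG-SIG only, Mrpl52 is highest in NC, and Mrpl10 is highest in HG-SIG.

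The other 6 genes that rose with high glucose did so by small amounts. Mrpl42 had 84.8, 80.6 and 79.7 CPM in HG, against 65.1, 72 and 71.6 CPM in NC, a log2 fold change of 0.23 ± 0.05 (edgeR, adjusted p = 0.0029) with no overlap. Mrpl51, a mitochondria-specific large-subunit protein, had 82.8, 81.7 and 75.4 CPM in HG, against 70, 72.7 and 68.5 CPM in NC, a log2 fold change of 0.19 ± 0.05 (adjusted p = 0.009). These 2 and Mrps6 kept their calls in all 20 settings. Mrpl41 (0.22), Mrps24 (0.22), Mrps23 (0.18) and Mrpl19 (0.16) lost theirs when HG replicate 1 or HG replicate 2 was left out. Mrps24, Mrps23 and Mrpl19 also lost it without NC replicate 3, and Mrpl41 and Mrps24 without NC replicate 1. Mrps24 is the counterpart of a bacterial protein at the entry of the mRNA channel, and its HG and NC libraries overlapped.

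The 4 genes that fell in HG against NC were Mrpl52, Mrpl53, Mrpl33 and Mrps10. Mrpl52 (ENSMUSG00000010406, chr14:54426909-54429756), a mitochondria-specific large-subunit protein, had 19.8, 18.6 and 16.9 CPM in HG-SIG, 23.2, 23.1 and 17.2 CPM in HG, and 26.1, 30.2 and 29.3 CPM in NC. All HG-SIG and HG libraries lay below all NC libraries. Its log2 fold change was -0.42 ± 0.10 (adjusted p = 0.0073) in HG against NC and -0.63 ± 0.10 (adjusted p = 0.00017) in HG-SIG against NC by edgeR, both called in all 20 settings, with -0.20 ± 0.10 (adjusted p = 0.12) in HG-SIG against HG. Mrpl53 (ENSMUSG00000030037, chr6:83109040-83109939), near the base of the stalk that recruits translation factors, had 22.4, 25 and 24.9 CPM in HG, against 29.2, 30.7 and 31.6 CPM in NC. These groups did not overlap, and the log2 fold change of -0.34 ± 0.06 (adjusted p = 0.00085) was called in all 20 settings. All of the Mrpl53 exons lie inside Gm42688, a readthrough locus on the same strand that has its own row and averaged 6.65 CPM in HG and 5.28 CPM in NC; how shared reads were divided was not tested.

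Mrpl33 encodes a large-subunit protein with a bacterial homologue, and Mrps10 a protein of the head of the small subunit. Mrpl33 had 44.1, 44.9 and 42.3 CPM in HG-SIG, 49.5, 51.1 and 43.6 CPM in HG, and 54, 56.5 and 53.2 CPM in NC. Mrps10 had 40.8, 42.7 and 39.5 CPM in HG-SIG, 48.1, 47.9 and 45.4 CPM in HG, and 51.9, 53.8 and 51.3 CPM in NC. For both genes, every HG library lay below every NC library, and HG-SIG lay lower still, with an overlap between HG-SIG and HG for Mrpl33 only. In HG against NC, the log2 fold changes were -0.18 ± 0.06 for Mrpl33 (adjusted p = 0.027) and -0.15 ± 0.04 for Mrps10 (adjusted p = 0.022) by edgeR. Both calls were lost without HG replicate 3, NC replicate 1 or NC replicate 2. Mrps10 was the only member called lower in each of the 3 comparisons, which share libraries; its call in HG-SIG against HG (-0.20, adjusted p = 0.0018) was lost with library totals alone (-0.04).

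In HG-SIG against HG, 28 of the 78 genes were lower and 1 was higher under TMM scaling, but 9 were lower and 14 higher when library totals alone were used, so the direction of the group depends on the scaling. TMM counts are relative to the bulk of genes, and the HG-SIG libraries had TMM factors of 1.08 to 1.09, against 0.961 to 0.977 in HG. Under TMM 25.7% of all genes tested were higher and 26.8% lower, and 48.9% of all calls were then higher. With library totals alone, 6093 of the 13311 genes were higher and 1826 lower, and 76.9% of all calls were higher. The members' median log2 fold change was -0.12 beside 0.009 for all genes under TMM, and 0.04 beside 0.17 with library totals. Relative to the median of all genes, the members' median was -0.125 on the log2 scale under both scalings, and 72 of the 78 lay below that median. A change of scaling moves all genes nearly alike, so it could hardly alter this position, and the agreement adds no support. On this relative scale the members shifted together by a small amount, and none passed an absolute log2 fold change of 1, which 5.3% of all genes did. Under TMM the HG-SIG libraries lay wholly above the HG libraries for 1 member and wholly below for 30, beside 29.9% and 28.8% of all genes. The number called lower was 43 without HG replicate 3, but 20 without HG-SIG replicate 3, 21 without HG replicate 1 and 22 without HG replicate 2. Without any other single library it was 26 to 29. Over the same groups the 8 tested macrophage markers were all lower in HG-SIG, and their part in these differences was not tested.

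**Figure D3:**
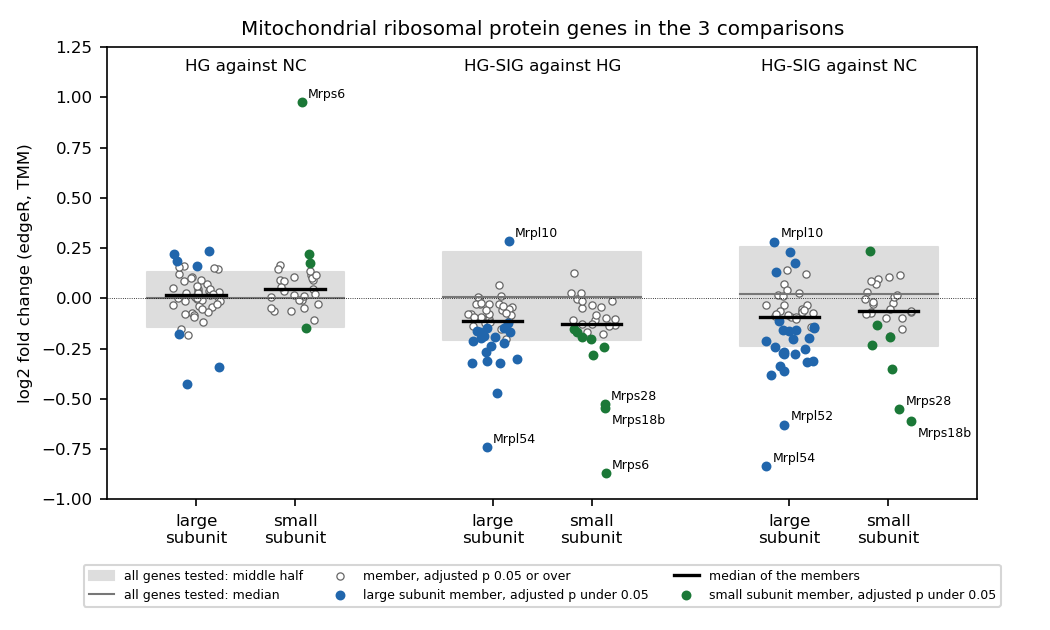
Log2 fold change (edgeR, TMM) of each gene, split by subunit, in the 3 comparisons, with filled points for adjusted p under 0.05 and grey boxes for the interquartile range of all genes tested. Most points fall inside the grey boxes, the HG-SIG comparisons are shifted below the median of all genes, and Mrps6 stands away from the rest in both comparisons that involve HG.

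**Figure D4:**
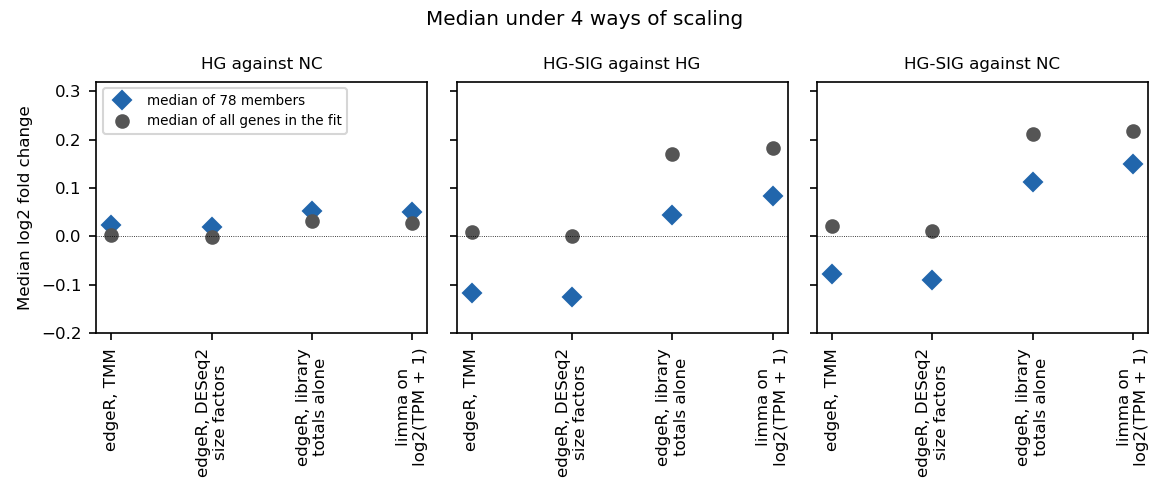
Median log2 fold change of the 78 members and of all genes in the fit under 4 ways of scaling, in the 3 comparisons. In both HG-SIG comparisons the 2 medians move up together with library totals or TPM, and the members stay below all genes. A change of scaling moves all genes nearly alike, so this gap could change little.

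The members are mostly short and fairly highly expressed genes, and HG-SIG against HG differences ran with both properties across the genome. Among protein-coding genes split into 5 bands of level, the median log2 fold change (TMM) was 0.18 in the lowest band and -0.14 in the highest. In the bands that held most members, the middle one and the next higher one, the members' medians were -0.11 and -0.11, beside 0.04 and -0.004 for all genes of the band. There, 29 of 30 and 31 of 34 members lay below the band's median, but 2 of 5 in the highest band. By exonic length, the 51 members in the shortest band (204 to 1860 bases) had a median of -0.11, beside -0.09 for all its genes, and 31 of the 51 were below the band's median. In that band 31.4% of the members were called lower, against 36.3% of all genes. In the other 4 bands of length all 27 members lay below the median of their band. Level and length were each taken alone.

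**Figure D5:**
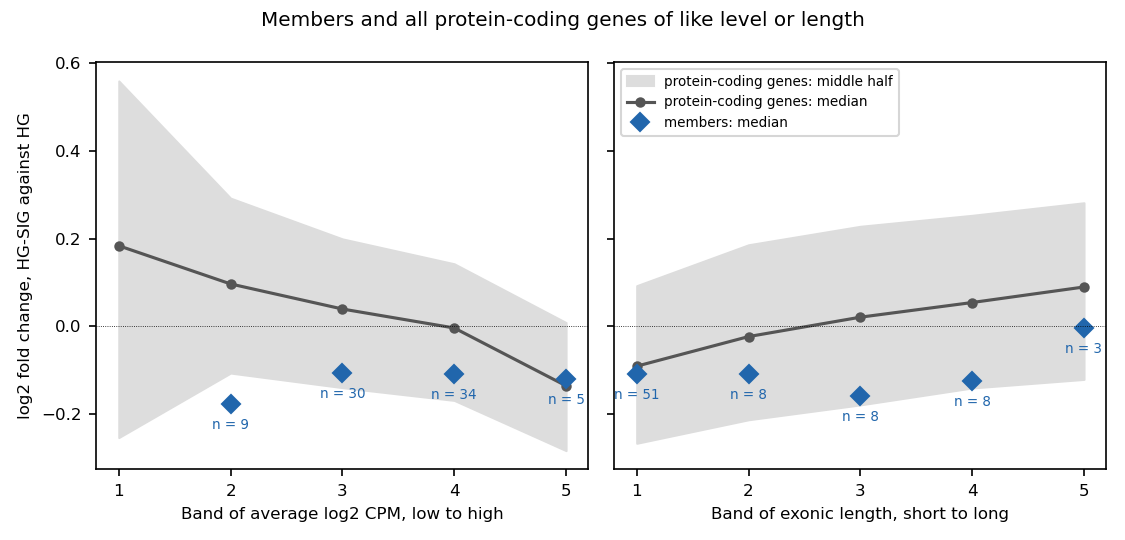
Median log2 fold change in HG-SIG against HG (TMM) of members and of all protein-coding genes in 5 bands of level (left) and of exonic length (right), with the interquartile range of the genes in grey. Members lie below the genes of like level in bands 2 to 4, and close to the genes of like length in the shortest band, which holds 51 of them.

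In HG-SIG against HG, 7 genes were called lower in all 20 settings: Mrps6, Mrpl54, Mrps18b, Mrps28, Mrpl23, Mrpl38 and Mrpl43. Mrpl54 (ENSMUSG00000034932, chr10:81264713-81266934, minus strand) encodes a mitochondria-specific protein near the base of the factor-binding stalk. It had 14.6, 15.4 and 14.6 CPM in HG-SIG, 26.2, 27.6 and 20.6 CPM in HG, and 25.5, 27.8 and 26.4 CPM in NC. The HG-SIG libraries lay below all 6 others, which overlapped among themselves. The log2 fold change was -0.74 ± 0.09 (edgeR, adjusted p = 2.4e-05) in HG-SIG against HG and -0.83 ± 0.09 (adjusted p = 4.9e-06) in HG-SIG against NC, with -0.09 ± 0.09 (adjusted p = 0.47) in HG against NC.

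Mrps18b (ENSMUSG00000024436, chr17:35910379-35916389, minus strand) is 1 of 3 mammalian relatives of a single bacterial small-subunit protein, beside Mrps18a and Mrps18c. It had 38.1, 37.4 and 37.4 CPM in HG-SIG, 56.5, 55.5 and 52.6 CPM in HG, and 57.1, 57.4 and 57.6 CPM in NC. The 3 groups did not overlap, although HG and NC lay close together and did not pass the test (-0.06 ± 0.04, adjusted p = 0.24). The log2 fold change was -0.54 ± 0.04 (edgeR, adjusted p = 2e-07) in HG-SIG against HG and -0.61 ± 0.04 (adjusted p = 3.5e-08) in HG-SIG against NC. Its relatives did not pass: in HG-SIG against HG, Mrps18a was at -0.13 ± 0.08 (adjusted p = 0.16) and Mrps18c at 0.03 ± 0.07 (adjusted p = 0.78). The antisense gene Gm16279 covers 59.1% of the Mrps18b exons, and its own row averaged 2.56 CPM in HG-SIG and 3.19 CPM in HG. Since no source used here states the strand setting of the counts, reads of the pair cannot be told apart.

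Mrps28 (ENSMUSG00000040269, chr3:8802146-8923918, minus strand) encodes a small-subunit protein. It had 16, 17.3 and 14.2 CPM in HG-SIG, 23.1, 25.3 and 19.7 CPM in HG, and 20.6, 26.4 and 22.7 CPM in NC. HG-SIG lay below both other groups, and those overlapped. Its log2 fold change was -0.52 ± 0.11 (edgeR, adjusted p = 0.0013) in HG-SIG against HG and -0.55 ± 0.11 (adjusted p = 0.0007) in HG-SIG against NC. Mrpl23 (ENSMUSG00000037772, chr7:142532686-142540747) had 5.96, 5.65 and 6.53 CPM in HG-SIG, against 9.12, 8.87 and 7.08 CPM in HG, with no overlap and a log2 fold change of -0.47 ± 0.10 (adjusted p = 0.002). Mrpl38, a protein of the central protuberance, the ridge where the subunits meet, changed by -0.31 ± 0.04 (adjusted p = 9.2e-05). Mrpl43, named after its values were seen, changed by -0.32 ± 0.05 (adjusted p = 7.8e-05); 27.5% of its exons overlap Twnk, the mitochondrial DNA helicase gene, on the other strand.

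Mrpl10 was the exception. It encodes the stalk protein that anchors the copies of Mrpl12, and it was the single member called higher in HG-SIG against HG under TMM. Its levels were 66.9, 66.3 and 62.6 CPM in HG-SIG, 54.3, 57.1 and 49.3 CPM in HG, and 55.6, 53.4 and 51.9 CPM in NC. All HG-SIG libraries lay above the others, and HG and NC overlapped. The log2 fold change was 0.28 ± 0.05 both in HG-SIG against HG (edgeR, adjusted p = 0.0007) and in HG-SIG against NC (adjusted p = 0.00053), and it kept its call in all 20 settings. Mrpl12, its partner, had 108, 105 and 102 CPM in HG-SIG, against 120, 125 and 108 CPM in HG, and overlapped; its change of -0.17 ± 0.06 (adjusted p = 0.023) was lost with library totals (adjusted p = 0.95) and when HG-SIG replicate 2 or 3 or HG replicate 1 or 2 was left out. The 5 stalk genes Mrpl10, Mrpl11, Mrpl12, Mrpl53 and Mrpl54 thus held 1 higher and 3 lower in HG-SIG against HG under TMM; these were grouped after their values were seen. Mrpl11, at the base of the stalk, was among the lower ones (-0.15, adjusted p = 0.034) but at 0.01 with library totals, and its TMM call was lost without HG-SIG replicate 3, HG replicate 1 or HG replicate 2.

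Other structural regions were also grouped after their values were seen, and their counts stand beside the 26.8% of all genes that were lower. Of 6 proteins of the central protuberance, Mrpl38 and Mrpl48 were lower in HG-SIG than in HG under TMM, and Mrpl18, Mrpl40, Mrpl46 and Mrpl58 did not pass. Mrpl58, a peptidyl-tRNA hydrolase that can release stalled peptides, was at -0.11 ± 0.06 (adjusted p = 0.11). Of 5 proteins around the peptide exit, Mrpl23 and Mrpl47 were lower under TMM, Mrpl47 not with library totals (-0.08), and Mrpl22, Mrpl24 and Mrpl45 did not pass. Mrpl45, which in human cells tethers the ribosome to the inner membrane, was at -0.08 ± 0.05 (adjusted p = 0.17). Mrpl44, a ribonuclease III relative in the large subunit, was also at -0.08 (adjusted p = 0.25). Among 3 proteins of the mRNA channel and decoding region (Mrps5, Mrps12 and Mrps24) none passed in HG-SIG against HG. Mrps35 and Mrps36 did not pass in any comparison. Mrps30 was lower under TMM (-0.19 ± 0.05, adjusted p = 0.0042) but at -0.03 (adjusted p = 0.60) with library totals.

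In 3 genes, Mrps6, Mrpl51 and Mrpl19, the call was higher in HG against NC and lower in HG-SIG against HG, 2 comparisons that share the HG libraries. Mrpl51 had 73.2, 72.6 and 67.9 CPM in HG-SIG, and its change in HG-SIG against HG was -0.17 ± 0.05 (edgeR, adjusted p = 0.0082) under TMM but -0.01 with library totals. Mrpl19, a large-subunit protein with a bacterial homologue, had 54.7, 55.7 and 52.7 CPM in HG-SIG, 69, 68.7 and 62.9 CPM in HG, and 61, 60.5 and 58.3 CPM in NC. None of its groups overlapped: HG was highest and HG-SIG lowest. Its change in HG-SIG against HG was -0.30 ± 0.04 (adjusted p = 0.00011) under TMM but -0.10 (adjusted p = 0.057) with limma on log2(TPM + 1). Of its exons, 39.2% overlap Gcfc2 on the other strand.

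In HG-SIG against NC, 28 genes were lower and 5 higher under TMM, but 9 were lower and 29 higher with library totals alone. Among all genes tested, 28.7% were lower and 29.9% higher under TMM. With library totals alone, 2120 of the 13311 genes were lower and 6786 higher. No member passed an absolute log2 fold change of 1, which 8.51% of all genes did. The HG-SIG libraries lay wholly above the NC libraries for 9 members and wholly below for 33, beside 34.2% and 31.7% of all genes. The members' median was -0.08 beside 0.022 for all genes under TMM, and 0.11 beside 0.21 with library totals. Under either, 62 of the 78 lay below the median of all genes, a count that the scaling could hardly change. Among genes of like length this differed: in the shortest band 20 of 51 members lay below the band's median (TMM). Their median there was -0.07 beside -0.10, and 35.3% were lower against 39.8% of all its genes. In the longer bands 6 of 8, 8 of 8, 7 of 8 and 2 of 3 lay below. By level, from band 2 up, 8 of 9, 26 of 30, 24 of 34 and 0 of 5 lay below. Of the 28 lower here and the 28 lower in HG-SIG against HG, 17 were shared, and the 2 comparisons share the HG-SIG libraries. In all 20 settings, 5 genes (Mrpl52, Mrpl54, Mrps10, Mrps18b and Mrps28) were lower and 3 genes, Mrpl10, Mrpl16 and Mrpl42, were higher. Mrpl16, a large-subunit protein with a bacterial homologue, had 40.5, 43.6 and 38.1 CPM in HG-SIG, against 34.8, 37 and 32.5 CPM in NC, without overlap and with a log2 fold change of 0.23 ± 0.06 (edgeR, adjusted p = 0.0069). The other 2 higher genes, Mrps12 (0.23 ± 0.09, adjusted p = 0.033), at the decoding site, and Mrpl4 (0.13 ± 0.05, adjusted p = 0.035), lost the call in DESeq2. The number higher was 3 without HG-SIG replicate 1, NC replicate 1 or NC replicate 3, and 8 without HG replicate 3.

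With the subunits split by name, 4 of the 49 large-subunit genes were higher and 3 lower in HG against NC (median log2 fold change 0.02). Of the 29 small-subunit genes, 3 were higher and 1 lower (median 0.05). Among all genes tested, 14.3% were higher and 15.2% lower. In HG-SIG against HG under TMM, 1 large-subunit gene was higher and 19 lower (median -0.11), beside 0 higher and 9 lower in the small subunit (median -0.13), which is 38.8% and 31.0% lower beside 26.8% of all genes. With library totals, 9 large-subunit genes were higher and 6 lower, and 5 small-subunit genes were higher and 3 lower. Of all 13311 genes, 6093 were then higher and 1826 lower. In HG-SIG against NC under TMM, 4 large-subunit genes were higher and 22 lower (median -0.09), beside 1 higher and 6 lower in the small subunit (median -0.06), so that 44.9% of the large and 20.7% of the small subunit were lower beside 28.7% of all genes. With library totals, 15 large-subunit genes were higher and 6 lower, and 14 small-subunit genes were higher and 3 lower. Of all 13311 genes, 6786 were then higher and 2120 lower. With the split by structure, 22 of 51 large-subunit genes (43.1%) and 6 of 26 small-subunit genes (23.1%) were lower in HG-SIG against NC under TMM. In HG-SIG against HG 20 of 51 (39.2%) and 8 of 26 (30.8%) were lower. The difference between the subunits was not tested. The median of the large subunit minus that of the small subunit was -0.03, 0.01 and -0.03 in the 3 comparisons. Of the 46 genes classed as having bacterial homologues, 1 was higher and 17 lower in HG-SIG against HG under TMM (median -0.12). Of the 32 classed as mitochondria-specific, 0 were higher and 11 lower (median -0.11). With library totals, 11 of the 46 were higher and 4 lower, and 3 of the 32 were higher and 5 lower.

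The ratio of summed TPM of the large over the small subunit was 1.82 ± 0.0399 in HG-SIG, 1.67 ± 0.0359 in HG and 1.86 ± 0.0169 in NC (SD, n = 3 libraries each), a ratio that no scaling of a library can change. All HG libraries (1.68, 1.63 and 1.71) lay below the other 6. Without Mrps6, the ratio was 2.05 ± 0.0382 in HG-SIG, 2.02 ± 0.028 in HG and 2.06 ± 0.0111 in NC, and HG overlapped with HG-SIG and still ended just below NC, so that most of the gap between HG and the other groups went with Mrps6. With subunits split by structure instead of by name, and Mrps6 kept, the ratio was 2.09 in HG-SIG, 1.91 in HG and 2.12 in NC. Over all 78 genes, the share of a library's counts was 0.401% ± 0.0103 in HG-SIG, 0.395% ± 0.0186 in HG and 0.372% ± 0.00996 in NC, whereas summed TMM-scaled CPM was 3698 ± 115 in HG-SIG, 4071 ± 217 in HG and 3915 ± 107 in NC. The 2 scales order HG-SIG differently.

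Other genes of mitochondrial translation, from lists chosen with earlier results of these data known, gave mixed counts, and the HG-SIG counts among them move with the scaling as the members' do. Among all genes tested, 14.3% were higher and 15.2% lower in HG against NC, and 25.7% and 26.8% in HG-SIG against HG under TMM. With library totals, 6093 of 13311 were higher and 1826 lower in HG-SIG against HG. Of 5 mitochondrial ribosomal proteins with other names, 2 were higher in HG against NC, and 2 were lower in HG-SIG against HG under TMM but 0 with library totals. Chchd1, a small-subunit protein, was at -0.30 ± 0.07 (edgeR, adjusted p = 0.0046) in HG-SIG against HG, and Gadd45gip1, a large-subunit protein, was at 0.36 ± 0.09 (adjusted p = 0.0071) in HG against NC. Of 18 translation factors, 5 were higher and 0 lower in HG against NC, and 3 were higher and 4 lower in HG-SIG against HG under TMM. Rmnd1, needed for mitochondrial translation, was at 0.50 ± 0.06 (adjusted p = 6.1e-05) in HG against NC. Tufm, the elongation factor that brings aminoacyl-tRNA, was at -0.27 ± 0.04 (adjusted p = 0.00014) in HG-SIG against HG, and Taco1, which in human cells promotes translation of a cytochrome oxidase subunit, was at 0.23 ± 0.05 (adjusted p = 0.0026).

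Of 27 tested assembly and rRNA modification factors, 6 were higher and 0 lower in HG against NC, and 4 were higher and 4 lower in HG-SIG against HG under TMM. The 6 are 22.2%, beside 14.3% of all genes. The 4 are 14.8% in each direction, below the 25.7% higher and 26.8% lower of all genes. Rpusd4, a pseudouridine synthase acting on the large ribosomal RNA, had 62.6, 65.7 and 59.9 CPM in HG-SIG, 97.1, 101 and 99 CPM in HG, and 85.7, 88.5 and 81.7 CPM in NC, with no overlap between groups. Its log2 fold change in HG-SIG against HG was -0.66 ± 0.04 (edgeR, adjusted p = 9.9e-08). Nsun4, an RNA methyltransferase of ribosome assembly, was higher there (0.34 ± 0.06, adjusted p = 0.00028), and Rbfa, a small-subunit assembly factor, was higher in HG against NC (0.37 ± 0.05, adjusted p = 0.00012). Of 23 tested genes of mitochondrial transcription and RNA processing, 2 were higher and 9 lower in HG-SIG against HG under TMM, but 9 were higher and 3 lower with library totals. Tbrg4, which stabilises mitochondrial RNAs, was at -0.46 ± 0.05 (adjusted p = 7e-06).

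The mRNAs encoded by mitochondrial DNA, which the mitochondrial ribosome translates, had a median log2 fold change of 0.04 in HG against NC. There 2 of 13 were higher (15.4%, beside 14.3% of all genes). In HG-SIG against HG under TMM the median was -0.21, with 8 of 13 lower (61.5%, beside 26.8% of all genes). With library totals 1 was lower and 1 higher. Most of these mRNAs are abundant. In the highest of the 5 bands of level, 54.6% of protein-coding genes were lower in HG-SIG against HG under TMM, with a median of -0.14. For mt-Co3, the change in HG-SIG against HG was -0.30 ± 0.04 (edgeR, adjusted p = 7e-05). Of 30 genes of mitochondrial protein import, which carries the ribosomal proteins into the matrix, 4 were higher and 16 lower in HG-SIG against HG under TMM. These are 13.3% and 53.3%, beside 25.7% and 26.8% of all genes. With library totals 6 were higher and 8 lower. Tomm20, a receptor of the outer membrane, was at -0.32 ± 0.04 (adjusted p = 8.9e-06).

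Among 9 tested upstream regulators known for nuclear-encoded mitochondrial genes, 3 were higher and 1 lower in HG against NC, beside 14.3% and 15.2% of all genes. The lower one was Myc, a transcription factor that activates ribosome and mitochondrial genes in many cells. Myc had 0.221, 0.321 and 0.149 CPM in HG-SIG, 2.82, 1.84 and 3.03 CPM in HG, and 18.7, 17.4 and 20.7 CPM in NC, with no overlap between the groups. The HG-SIG levels rest on 7, 10 and 5 counts, so the size of the change from HG is imprecise. The log2 fold changes of Myc by edgeR were -2.88 ± 0.14 (adjusted p = 1.1e-08) in HG against NC and -3.46 ± 0.29 (adjusted p = 7.8e-07) in HG-SIG against HG. Over the same groups the members' medians were 0.02 and, under TMM, -0.12. Pprc1, a coactivator of nuclear genes for mitochondria, was at 0.18 ± 0.05 (adjusted p = 0.0095) in HG against NC and -0.50 ± 0.05 (adjusted p = 2.1e-06) in HG-SIG against HG. Ppargc1b, another coactivator of that family, was at 0.41 ± 0.06 (adjusted p = 0.00022) in HG against NC. In HG-SIG against HG under TMM, 1 of the 9 regulators was higher and 2 were lower, beside 25.7% and 26.8% of all genes.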

How the data were processed

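Gene counts of 9 libraries were analysed, 3 in each of 3 groups taken from the sample titles. The deposited counts were whole numbers per gene; Bowtie2 2.3.5, RSEM and mm10 were used by the authors, per the submitters' processing notes, so estimated counts may have been rounded, and no source used here states the annotation release or strand setting. Here edgeR 4.0.16 (R 4.3.3) was fitted over all 9 libraries with TMM scaling, filterByExpr by group and the quasi-likelihood test, and p was adjusted by Benjamini-Hochberg over 13311 genes. TPM was computed from merged exon lengths of GENCODE M21, which also gave coordinates (mm10); promoters came from RefSeq (GRCm38.p6). The 20 settings were this fit, 10 alternatives (among them DESeq2 1.42.0, limma 3.58.1, a replicate block and library totals) and each library left out; the series states limma on log2 TPM. Scripts were tested on simulated counts. The members and lists were chosen with earlier results of these data known. Named members were the 5 highest and 5 lowest called per comparison, those called in opposite directions or in all 3, 10 fixed genes, and the extremes of TPM by subunit; 12 more were added after their values were seen. Replicate numbers were taken not to pair libraries.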

Additional observations from a re-analysis of the deposited data

How the results depend on the processing

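Calls in HG-SIG depended on the scaling, whose choice the counts alone cannot settle. With library totals alone, limma on log2(TPM + 1) and limma on log2(TPM + 0.1), members higher were 14, 31 and 31 in HG-SIG against HG, 29, 47 and 47 in HG-SIG against NC, and 15, 16 and 16 in HG against NC. Members lower were 9, 7 and 7 in HG-SIG against HG and 9, 5 and 5 in HG-SIG against NC, and the median log2 fold changes were 0.045, 0.084 and 0.086 in HG-SIG against HG and 0.11, 0.15 and 0.15 in HG-SIG against NC. These settings share a total per library, and the median of all genes moved with them, to 0.17 in HG-SIG against HG with library totals. With limma on log2(TPM + 1), 6542 of 12099 genes were higher and 1510 lower in HG-SIG against HG. In HG-SIG against NC 7010 were higher and 1804 lower, and in HG against NC 2349 and 1675. DESeq2 called 3 higher in HG-SIG against NC. Members that overlap another gene over more than 10% of their exons were also left out. That gave 2 lower in HG against NC and 0 higher in HG-SIG against HG. This setting was added after the data were seen, and it drops members from the counts without changing any estimate. Among those dropped was Mrpl10, whose overlapping gene Gm11574 had 0 to 2 counts a library.

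Leaving out 1 library at a time gave 3 to 16 higher and 2 to 5 lower in HG against NC, 1 to 1 higher and 20 to 43 lower in HG-SIG against HG, and 3 to 8 higher and 19 to 32 lower in HG-SIG against NC. Medians ranged from -0.002 to 0.07, from -0.16 to -0.08 and from -0.10 to -0.06. Depth left the members between 161 and 4446 counts per library, and the 3 libraries a group limit small changes.

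Same-numbered libraries of different groups had r from -0.0027 to 0.0988 over 9 pairs, beside -0.0768 to 0.0408 for pairs with other numbers. Of the 9 libraries, 8 correlated best with their own number. The labels do not say that the numbers pair the libraries, so the main fit had no block. Whether they are paired was not tested. With the replicate block, 14 members were higher and 5 lower in HG against NC, 1 and 38 in HG-SIG against HG, and 9 and 35 in HG-SIG against NC.

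Among 39 named members, 1984 of 2223 values under the alternatives kept their side of the threshold and, where called, their direction. Values called in neither setting count among these even if their sign turned. Of the rest, 75 lost the call, 100 gained it and 64 turned direction while called in either setting. The 64 were 8 with library totals alone, 28 with limma on log2(TPM + 1) and 28 with limma on log2(TPM + 0.1). The cause was not tested. With library totals the turned log2 fold changes, genes of the other lists included, were 0.013 (Mrpl11), 0.11 (Mrpl24) and 0.11 (Ptcd3) in HG-SIG against HG, and 0.029 (Mrpl11), 0.049 (Mrpl19), 0.099 (Mrpl24), 0.14 (Mrpl44), 0.034 (Mrpl58), 0.14 (Mrps5) and 0.066 (Tufm) in HG-SIG against NC. With limma on log2(TPM + 1) they were 0.050 (Mrpl11), 0.036 (Mrpl12), 0.17 (Mrpl22), 0.15 (Mrpl24), 0.12 (Mrpl41), 0.14 (Mrpl42), 0.11 (Mrpl44), 0.12 (Mrpl45), 0.18 (Mrpl46), 0.032 (Mrpl51), 0.0066 (Mrps30), 0.15 (Mrps35), 0.10 (Mrps5), 0.15 (Ptcd3), 0.15 (Rbfa) and 0.11 (Yy1) in HG-SIG against HG. In HG-SIG against NC they were 0.063 (Mrpl11), 0.15 (Mrpl12), 0.17 (Mrpl18), 0.084 (Mrpl19), 0.16 (Mrpl22), 0.14 (Mrpl24), 0.16 (Mrpl40), 0.17 (Mrpl44), 0.19 (Mrpl46), 0.14 (Mrpl47), 0.068 (Mrpl58), 0.21 (Mrps18c), 0.12 (Mrps30), 0.17 (Mrps36), 0.17 (Mrps5) and 0.10 (Tufm). With a pseudocount of 0.1 the values that differed as rounded were 0.051 (Mrpl11), 0.18 (Mrpl22), 0.13 (Mrpl41), 0.12 (Mrpl44) and 0.0067 (Mrps30) in HG-SIG against HG and 0.065 (Mrpl11), 0.087 (Mrpl19), 0.20 (Mrpl46), 0.071 (Mrpl58), 0.13 (Mrps30) and 0.18 (Mrps5) in HG-SIG against NC.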
